A study of Mus musculus with 6 samples.

Results

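The ISG15 conjugation system was followed through 6 genes chosen by gene symbol, and all 6 were found once each among the 53715 genes of the count table. They encode the ubiquitin-like modifier ISG15, its activating enzyme (E1) Uba7, its conjugating enzyme (E2) Ube2l6, the mouse ISG15 ligase (E3) Herc6, the protease Usp18 that removes ISG15 from proteins, and Rnf213, a giant ligase reported to bind ISG15. Poly(A) RNA of the piriform cortex, an olfactory cortex prone to seizures, was measured in bulk in 6 libraries from Gad2-Cre mice, in which cells that express Gad2 (a GABA-synthesising enzyme) make Cre recombinase. The Caspase3 group (3 libraries) had been injected on 1 side of the brain with AAV-DIO-Caspase3, an adeno-associated virus whose Cre-dependent cargo triggers apoptosis, and the GFP group (3 libraries) with AAV-DIO-GFP. Both groups thus share the Cre allele, the surgery and a virus. Age, sex, the interval after injection and the side sampled are not given in the labels used here, and the labels do not state that each library is a different animal. The p-values therefore reflect only how much these libraries varied, and that variation may be technical.

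ISG15 is attached to lysines of target proteins by a cascade that parallels ubiquitin's: the E1 activates it, the E2 accepts it, and the ligase transfers it, largely to newly made proteins. Type I interferon induces the modifier, its enzymes and its protease through a transcription factor complex that binds interferon-stimulated response elements (ISRE). In mice Usp18 also blocks signalling at the interferon receptor, and its loss in brain microglia is known to leave interferon responses unchecked.

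Gad2, the gene that marks the targeted cells, stood at 26.7, 38.5 and 38.0 CPM (read counts scaled to library size) in the Caspase3 libraries and at 92.4, 118.0 and 103.7 CPM in the GFP libraries (log2 fold change -1.60 ± 0.15, SE, edgeR adjusted p = 0.00371). In bulk RNA, fewer cells of a type and less RNA per cell cannot be told apart. Total counts ran from 20424581 to 26268377, so that 3 counts in a library equalled 0.118 to 0.142 CPM. Cortical excitatory neuron markers were present in every library (summed CPM of 8 genes 2126 to 2312 in the Caspase3 and 1777 to 2773 in the GFP group), and GFP replicate 3 stood apart in its striatal markers, with a sum of 1153 CPM over 8 genes against 190.7 to 298.7 CPM in the other 5 libraries.

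The promoters of the modifier and of its ligase are shown because these genes had the largest and the smallest fold change of the system. Each line gives the 120 bases before the RefSeq transcript start on the gene's strand (GRCm38.p6), with matches to the ISRE core GAAANNGAAA, searched on both strands, in capitals. The Isg15 window lies at chr4:156200819-156200938 on the minus strand and the Herc6 window at chr6:57580872-57580991 on the plus strand.
Isg15: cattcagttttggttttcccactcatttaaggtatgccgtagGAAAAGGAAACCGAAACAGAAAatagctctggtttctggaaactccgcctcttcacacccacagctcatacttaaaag
Herc6: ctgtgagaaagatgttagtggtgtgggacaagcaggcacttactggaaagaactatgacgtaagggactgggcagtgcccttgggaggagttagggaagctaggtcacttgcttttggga
In Isg15 the 3 matches overlapped, at positions -78 to -69, -72 to -63 and -66 to -57 from the transcript start, and formed 1 run of GAAA repeats. RefSeq promoters were matched for 5 of the 6 genes (Usp18 was not matched). Over 250 bases before the start, Isg15 held the core and Uba7, Ube2l6, Herc6 and Rnf213 did not, where 2.98% of 32851 promoter windows did. The gamma-interferon element TTCNNNGAA was found in none of the 5, against 7.02% of all windows. A match describes these letters only, and no match says only that the letters are not in this window. For Rnf213 the RefSeq start lay 3001 bases from the start of the gene in the deposited table.

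All 6 transcripts were higher in the Caspase3 group. They rose from 2.92-fold (Herc6) to 25.3-fold (Isg15), and for each the quasi-likelihood test of edgeR over 16721 genes gave an adjusted p below 0.05, where 1.53% of all tested genes were called higher. For all 6, the lowest Caspase3 library lay above the highest GFP library in CPM, as it did for 8.96% of all tested genes. The members' median log2 fold change was 2.41, against 0.00 over all tested genes. The 6 genes were chosen with earlier results of these data known, so their shared direction is a description. The calls depended on the GFP libraries: 5 of 6 genes passed without GFP replicate 1 and 4 of 6 without GFP replicate 3, the library with high striatal markers. Without GFP replicate 2, 0 of 6 passed (edgeR adjusted p = 0.0562 to 0.110), when 15 genes of 17165 were called higher, although log2 fold changes still lay between 1.46 and 4.75.

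**Figure D1:**
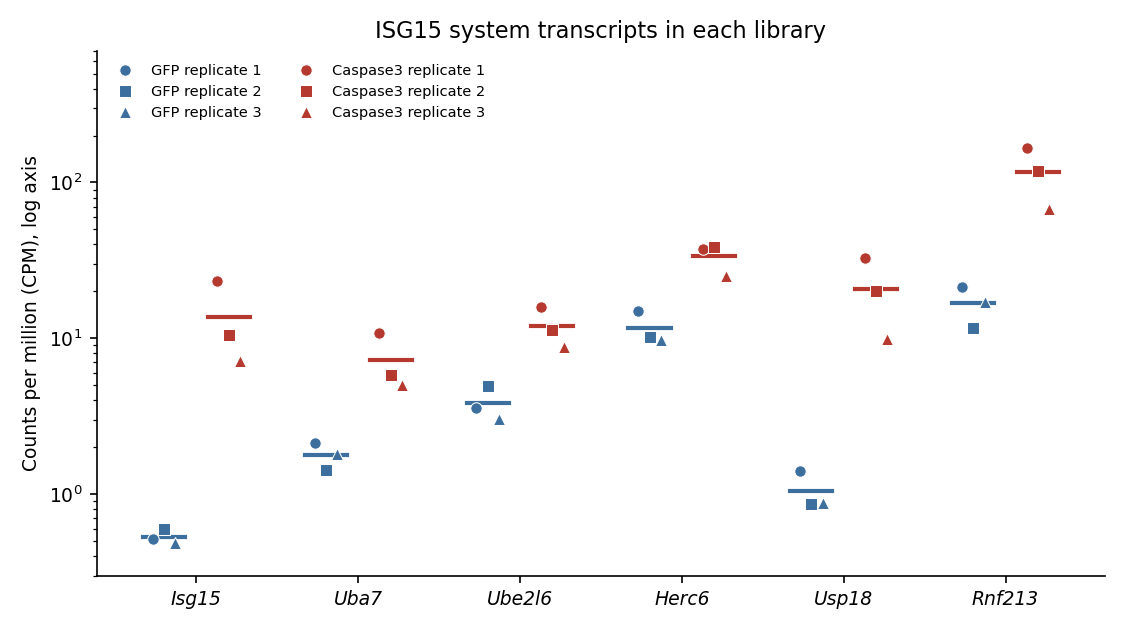
CPM on a log axis for the 6 genes of the ISG15 system, with 1 point for each library (circle, square and triangle for replicates 1, 2 and 3) and a bar at the group mean, GFP in blue and Caspase3 in red. For every gene the 3 Caspase3 points lie above the 3 GFP points, and the gap is widest for Isg15 (lowest Caspase3 library 7.18 CPM, highest GFP library 0.594 CPM).

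Isg15 (ENSMUSG00000035692, chromosome 4, 156199424 to 156200818, GRCm38, minus strand, 2 exons and 1 transcript in GENCODE M21) encodes the modifier, which is also secreted as a cytokine-like protein. It stood at 23.2, 10.5 and 7.18 CPM in Caspase3 replicates 1, 2 and 3 and at 0.513, 0.594 and 0.483 CPM in GFP replicates 1, 2 and 3. The GFP libraries lay close together, at 11, 15 and 11 counts, while the highest Caspase3 library was 3.23 times the lowest. The lowest Caspase3 library was still 12.1 times the highest GFP library. Isg15 rose 25.3-fold, from 0.530 ± 0.0574 to 13.6 ± 8.44 CPM (SD, n = 3 each), with a log2 fold change of 4.66 ± 0.48 (SE, edgeR adjusted p = 0.00405). Its fold change ranked 20 among the 16721 tested genes.

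Uba7 (chromosome 9, 107975505 to 107984060) encodes the E1 that is dedicated to ISG15 and starts the cascade. Its values were 10.8, 5.78 and 5.05 CPM in the Caspase3 libraries and 2.14, 1.43 and 1.80 CPM in the GFP libraries. Caspase3 replicate 1 was high, and the other Caspase3 libraries lay close to each other. Uba7 rose 4.02-fold (log2 fold change 2.01 ± 0.32, edgeR adjusted p = 0.0163). It had 36 to 46 counts in each GFP library. Without GFP replicate 3 it also missed the threshold (edgeR adjusted p = 0.0579).

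Ube2l6 (chromosome 2, 84798828 to 84810335) encodes the E2, known as UBCH8, which takes ISG15 from the E1. It stood at 15.8, 11.2 and 8.76 CPM in the Caspase3 libraries and at 3.59, 4.95 and 3.03 CPM in the GFP libraries. The ordering was as for the modifier, with Caspase3 replicate 1 highest and GFP replicate 3 lowest, and the gap between the groups was small: the lowest Caspase3 library was 1.77 times the highest GFP library. Ube2l6 rose 3.08-fold (log2 fold change 1.62 ± 0.26, edgeR adjusted p = 0.0162), and it missed the threshold when any 1 GFP library was left out (edgeR adjusted p = 0.0556 to 0.0629).

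Herc6 (chromosome 6, 57581000 to 57664632) encodes a HECT-type ligase that serves as the main ISG15 ligase of the mouse, in the place of human HERC5. Its values were 37.4, 38.8 and 25.2 CPM in the Caspase3 libraries and 14.9, 10.1 and 9.75 CPM in the GFP libraries. It was the 1 gene of the 6 for which Caspase3 replicate 2, not replicate 1, was highest, and its Caspase3 libraries spread least (1.54 times from lowest to highest, against 1.80 to 3.32 times for the other 5 genes). The group means were 11.6 ± 2.85 CPM (GFP) and 33.8 ± 7.47 CPM (Caspase3), a 2.92-fold rise (log2 fold change 1.55 ± 0.21, edgeR adjusted p = 0.00774).

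Usp18 (chromosome 6, 121245906 to 121270917) encodes the ISG15 protease. It stood at 32.7, 20.1 and 9.86 CPM in the Caspase3 libraries and at 1.40, 0.871 and 0.878 CPM in the GFP libraries. Its Caspase3 libraries differed from each other as much as those of Isg15 did (3.32 times), and they fell in the same order. Usp18 rose 19.9-fold between group means of 1.05 ± 0.302 and 20.9 ± 11.4 CPM (log2 fold change 4.31 ± 0.45, edgeR adjusted p = 0.00405).

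Rnf213 (chromosome 11, 119393100 to 119487418) encodes a giant protein with an AAA+ ATPase core and a RING domain, and its human orthologue is the main susceptibility gene for moyamoya disease of brain arteries. It was the most read gene of the system in every library, at 165.7, 117.7 and 67.1 CPM in the Caspase3 libraries and 21.4, 11.7 and 17.1 CPM in the GFP libraries. Its deposited length of 16888 bases was the longest of the 6. Rnf213 rose 6.99-fold (log2 fold change 2.81 ± 0.33, edgeR adjusted p = 0.00489). An antisense transcript, A930037H05Rik, overlaps 8.74% of its exon length and held 27 to 49 counts in every library of either group (log2 fold change -0.13, edgeR adjusted p = 0.922), against 296 to 3496 counts for Rnf213.

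**Figure D2:**
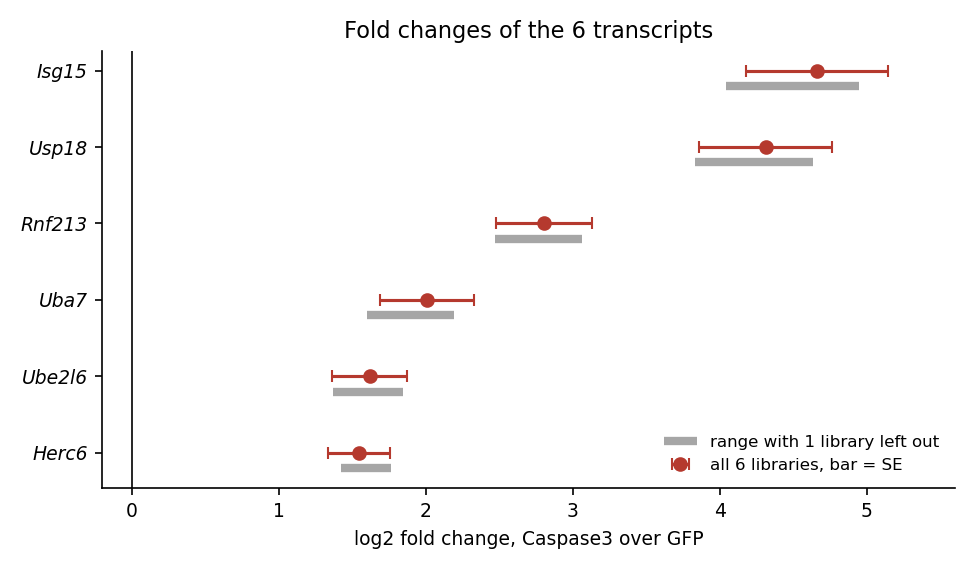
Log2 fold change of Caspase3 over GFP for each gene of the ISG15 system (red point, bar = SE, all 6 libraries), with the range over the fits that leave out 1 library below it in grey. Isg15 and Usp18 lie at 4.66 and 4.31, Rnf213 at 2.81, and Uba7, Ube2l6 and Herc6 between 1.55 and 2.01.

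Caspase3 replicate 3 was the lowest Caspase3 library for all 6 genes, and replicate 1 the highest for 5 of them. The GFP libraries showed no such common order: GFP replicate 2 was highest for Isg15 and Ube2l6 and lowest for Uba7, Usp18 and Rnf213. Markers of several cell types differed with the groups as well, where 1.53% of all tested genes were called higher. At an unadjusted edgeR p under 0.05 stood 1777 of the 16721 tested genes, in either direction. Of 8 microglia markers, 5 passed as higher in edgeR, while DESeq2 called 6, limma-voom 4 and limma on either FPKM scale 3. The summed level of the 8 was 587.1, 470.3 and 442.3 CPM in the Caspase3 and 346.6, 299.4 and 303.6 CPM in the GFP libraries. Of 8 T and NK cell markers 3 were tested and 2 passed as higher in edgeR (Cd3e and Cd8a), while Cd4 had a log2 fold change of -0.86 and did not pass (edgeR adjusted p = 0.782). DESeq2 and limma-voom called the same 2, limma on log2(FPKM + 0.1) called Cd8a alone, and limma on log2(FPKM + 1) called none. The sums of the 8 were 3.67 to 7.39 CPM in the Caspase3 and 0.832 to 4.52 CPM in the GFP group. Among 8 astrocyte markers 1 passed, Gfap, with sums of 8335 to 11014 against 9322 to 11628 CPM. None of the 6 oligodendrocyte markers or the 7 endothelial markers passed in edgeR, DESeq2 or limma, with 1 and 0 at an unadjusted edgeR p under 0.05 (sums of 8610 to 12341 against 7481 to 8793 CPM, and of 418.7 to 482.6 against 391.4 to 505.1 CPM). All 6 oligodendrocyte markers had positive log2 fold changes (0.20 to 0.38), as did 5 of the 7 endothelial markers (range of the 7 from -0.12 to 0.25). Neuronal lists differed among themselves. All 9 tested GABAergic markers had negative log2 fold changes (median -1.32, 1 passed in edgeR, Gad2, and 3 in DESeq2), with sums of 418.5 to 628.7 CPM in the Caspase3 and 727.8 to 1064 CPM in the GFP group. All 8 striatal markers were negative too (median -1.68, none passed in edgeR or DESeq2, 5 at an unadjusted edgeR p under 0.05), where GFP replicate 3 was high. Of 6 general neuron markers, 5 were negative and none passed in edgeR (1 at an unadjusted p under 0.05 and 1 in DESeq2, Nefl, sums of 7243 to 8664 against 7877 to 10541 CPM). Of the 8 excitatory neuron markers 3 were positive and none passed (median -0.19), with overlapping sums of 2126 to 2312 against 1777 to 2773 CPM. The part of cell make-up in the rise of the ISG15 genes was not tested.

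Compared per kilobase of gene length, the modifier moved from the fourth to the first place of the 6. In the GFP group the highest level was that of Ube2l6, at 1.93 ± 0.495 CPM per kb (SD, n = 3), followed by Herc6 at 1.25 ± 0.307, Rnf213 at 0.991 ± 0.287, Isg15 at 0.701 ± 0.0759, Usp18 at 0.376 ± 0.108 and Uba7 at 0.268 ± 0.0537 CPM per kb. Across libraries, values of neighbours in that order overlapped, except between Isg15 and Usp18. Within each GFP library the order held, except that Isg15 lay above Rnf213 in GFP replicate 2. In the Caspase3 group Isg15 led with 18.0 ± 11.2 CPM per kb, followed by Usp18 at 7.48 ± 4.10, Rnf213 at 6.92 ± 2.92, Ube2l6 at 5.97 ± 1.78, Herc6 at 3.64 ± 0.804 and Uba7 at 1.08 ± 0.468 CPM per kb. Here the values of neighbours overlapped across libraries among the first 4 genes, and did not overlap between Ube2l6 and Herc6 or between Herc6 and Uba7. Within libraries the order held in Caspase3 replicates 1 and 2. In Caspase3 replicate 3, Isg15 was followed by Ube2l6, then Rnf213, then Usp18. These levels depend on the length used. The deposited length holds all exons of all transcripts and was 2790 bases for Usp18, 9292 for Herc6 and 6692 for Uba7, where the longest coding transcripts in GENCODE M21 measure 1771, 4767 and 3195 bases. With those lengths Herc6 stood at 7.09 and Rnf213 at 6.99 CPM per kb in the Caspase3 group, so that Rnf213 ranked 5 in that group instead of 3, while Isg15 and Usp18 still ranked 1 and 2, at 18.0 and 11.8 CPM per kb.

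The summed level of the 6 genes was 65.7, 38.7 and 24.9 CPM per kb in the Caspase3 libraries and 6.16, 5.58 and 4.80 CPM per kb in the GFP libraries. Isg15 made up 46.6%, 35.9% and 38.2% of that sum in the Caspase3 libraries and 11.0%, 14.1% and 13.3% in the GFP libraries. The share of Usp18 was likewise higher in each Caspase3 library, at 16.9 ± 2.33% against 6.76 ± 1.28%. The shares of the E2 and of the ligase were lower, at 14.7 ± 2.82% against 35.1 ± 8.22% for Ube2l6 and 9.27 ± 2.73% against 22.5 ± 3.24% for Herc6, although both transcripts rose. For Uba7 the share was 2.57 ± 0.416% against 4.87 ± 0.934%. These 5 shares did not overlap between the groups and reached a two-sided exact permutation p of 0.1 (0.12 adjusted over 6 shares), the smallest that 3 against 3 libraries allow. Rnf213 held 16.3 ± 1.56% and 18.0 ± 4.83%, with overlapping values (exact permutation p = 0.6).

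**Figure D3:**
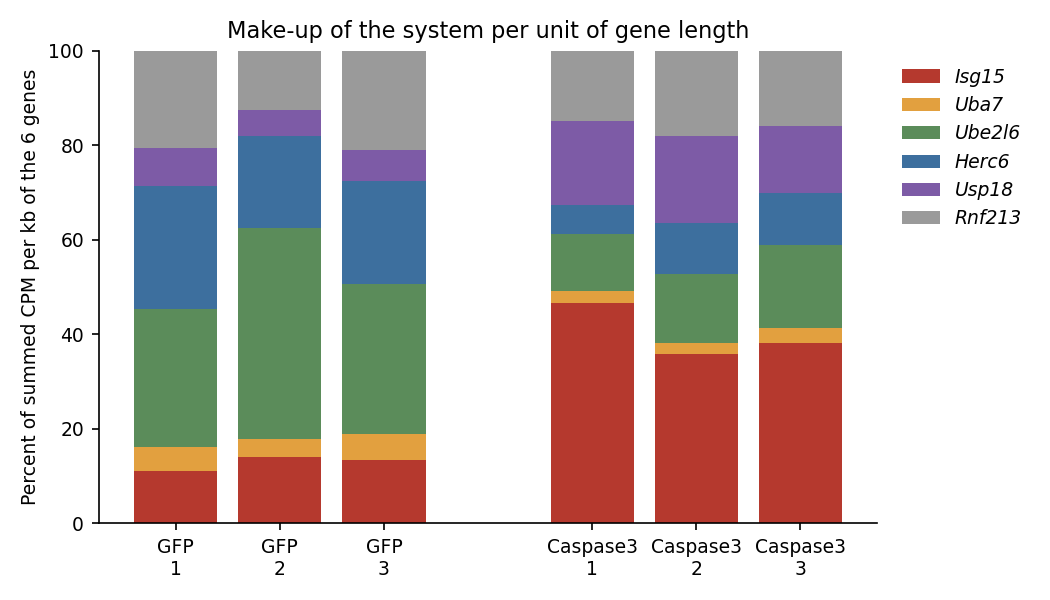
Share of each gene in the summed CPM per kb of the ISG15 system, as stacked bars from 0 to 100%, 1 bar for each library. The Isg15 segment covers 11.0% to 14.1% in the GFP bars and 35.9% to 46.6% in the Caspase3 bars, and the Ube2l6 and Herc6 segments are narrower in the Caspase3 bars.

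The ratio of the modifier to its protease overlapped between the groups. Per kilobase, Isg15 was 2.62, 1.93 and 2.69 times Usp18 in the Caspase3 libraries and 1.35, 2.52 and 2.03 times in the GFP libraries (difference in log2 ratio 0.32, exact permutation p = 0.4). Against the E2 the ratio changed from 0.377, 0.317 and 0.421 to 3.88, 2.47 and 2.16, without overlap (difference in log2 ratio 2.90, exact permutation p = 0.1, the smallest possible). The log2 ratio of Isg15 to Uba7, Herc6 and Rnf213 differed by 2.57, 2.97 and 1.76 between the groups, each without overlap (exact permutation p = 0.1). Adjusted over the 5 ratios, the permutation p was 0.125 for these 4 and 0.4 for Usp18. The ratios use the same levels as the fold changes and the shares, and add no separate evidence.

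Of 8 further ligases and proteases reported to act on ISG15, 1 passed: Trim25, a ligase that also activates the RNA sensor RIG-I, rose 2.87-fold between group means of 14.3 ± 4.02 and 41.0 ± 14.2 CPM (log2 fold change 1.52 ± 0.26, edgeR adjusted p = 0.0231). It missed the threshold without GFP replicate 2 or GFP replicate 3 (edgeR adjusted p up to 0.143). The ligase Arih1 and the proteases Usp2, Usp5, Usp13, Usp14, Usp16 and Usp21 had log2 fold changes between -0.14 and 0.02 and did not pass. The list median was -0.05, and 1.53% of all tested genes were called higher. Of 6 partners of ISG15 or USP18, 2 passed: Stat2, which brings USP18 to the interferon receptor (2.63-fold, edgeR adjusted p = 0.00621), and Itgb2, a subunit of the integrin LFA-1 that binds secreted ISG15 (2.28-fold, edgeR adjusted p = 0.0199). Itgal, the other subunit of LFA-1, had a log2 fold change of 1.91 and did not pass (edgeR adjusted p = 0.175), nor did the receptor subunits Ifnar1 and Ifnar2 (log2 fold changes 0.07 and 0.45, edgeR adjusted p = 0.855 and 0.338). Itgb2 missed the threshold without GFP replicate 2 or GFP replicate 3 (edgeR adjusted p up to 0.121).

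In 5 lists of ubiquitin, the other ubiquitin-like modifiers and their E1, E2, HECT-type and USP enzymes, none of 130 tested genes passed in edgeR. DESeq2, limma-voom and limma on FPKM called none either. An unadjusted edgeR p under 0.05 was found for 6 of the 130 (1 of them higher), against 1777 of all 16721 tested genes in either direction. Usp2, Usp5, Usp13, Usp14, Usp16 and Usp21, given above as ISG15 proteases, also belong to the USP list. With 1.53% of all tested genes called higher, a count of 0 in lists of this size is near that background, so the values themselves are given. None of 9 tested E1 genes was called, with log2 fold changes from -0.16 to 0.03, and Uba1, the E1 of ubiquitin, stood at 301.0 ± 1.19 against 294.3 ± 16.5 CPM. None of 33 tested E2 genes was called (-0.38 to 0.11), nor any of 25 HERC and HECT ligases (-0.42 to 0.16), nor any of 45 other ubiquitin-specific proteases (-0.38 to 0.32). Ube2d3, Nedd4 and Usp9x, the most read members of these lists, had log2 fold changes of -0.12, 0.03 and -0.03. Among 18 tested modifiers, which included ubiquitin, Nedd8 and the SUMO genes, none passed (-0.16 to 0.77). Ubb, a polyubiquitin gene, stood at 364.2 ± 54.7 against 322.0 ± 17.0 CPM (edgeR adjusted p = 0.687). The medians of these 5 lists lay between -0.09 and 0.10.

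**Figure D4:**
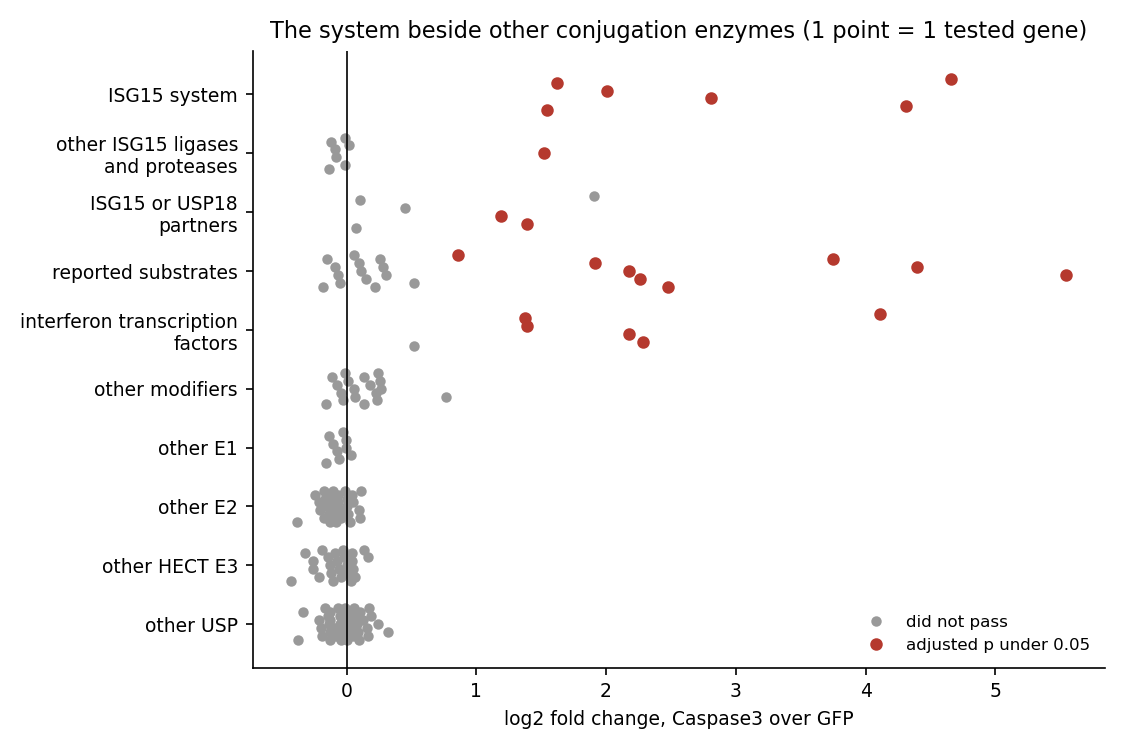
Log2 fold change of Caspase3 over GFP, 1 point for each tested gene, for the ISG15 system, 4 lists of its pathway and 5 lists of other modifiers and conjugation enzymes; red points passed an adjusted p of 0.05, grey points did not. All 6 points of the system are red and lie between 1.55 and 4.66, and no point of the 5 lower lists is red.

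Of 22 genes of proteins reported to carry ISG15, 8 rose, 14 did not pass and none fell, with a list median of 0.27. Of all tested genes 1.53% were called higher. Among those that rose were Ifit1 and Ifit3, which bind viral RNA or join complexes that do (21.0-fold and 13.4-fold), and the antiviral GTPase Mx1 (46.7-fold, from 12 counts over the GFP libraries), with edgeR adjusted p of 0.00371, 0.00405 and 0.00371. Among those that did not pass were the kinase Jak1 (log2 fold change 0.15, edgeR adjusted p = 0.709) and the replication clamp Pcna (0.10, edgeR adjusted p = 0.749).

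Among transcription factors of the interferon response, Irf7 rose 17.2-fold, Irf9 4.87-fold and Stat2 2.63-fold (edgeR adjusted p = 0.00405 to 0.00621), and Irf1 rose 2.59-fold (edgeR adjusted p = 0.0190). Irf3, a constitutive member of the family, had a log2 fold change of 0.52 and did not pass (edgeR adjusted p = 0.355). Stat2 and Irf3 also belong to the partner or substrate lists. Ifit1 and Mx1 still passed without GFP replicate 2 (edgeR adjusted p = 0.0494), and Ifit3, Stat2, Irf7 and Irf9 did not (0.0562 to 0.0585). Irf1 did not pass there either, as Ifit1 and Mx1 were the only 2 listed genes outside the system called higher. Interferon transcripts themselves were at or near 0. Of 20 interferon genes, 17 had no count in any of the 6 libraries, which allows up to 0.118 to 0.142 CPM in a library, and Ifnb1, Ifnk and Ifna1 had 1 count each over all libraries. Floors of 3 counts cover counting error only.

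Of the 24 tested neighbours on the chromosome, 2 on each side of each gene, none passed in edgeR. With 1.53% of all tested genes called higher, a count of 0 in 24 is near that background. DESeq2 called 1, Serping1, and limma called none. An unadjusted edgeR p under 0.05 was found for 3 neighbours, all higher, against 1777 of all 16721 tested genes in either direction. In 3 of the 24 (Serping1, Perm1 and Slc26a11) the Caspase3 libraries all lay above the GFP libraries, against 8.96% of all tested genes. The neighbours had a median log2 fold change of 0.05, with a range from -0.54 to 1.36. The largest was that of Serping1, which encodes the complement C1 inhibitor and lies 23384 bases from Ube2l6 (15.3 against 5.96 CPM, without overlap of the groups, edgeR adjusted p = 0.0975). Agrn, 1936 bases from Isg15, stood at 106.4 against 94.8 CPM (log2 fold change 0.17), and on its other side AW011738 and Perm1 had log2 fold changes of 0.91 and 0.74 (edgeR adjusted p = 0.351 and 0.268). Above Usp18 in coordinate, Slc6a13 and Slc6a12 had log2 fold changes of 0.73 and 0.85 (edgeR adjusted p = 0.530 and 0.682). Herc6 and Usp18 share chromosome 6 but lie far apart, and the nearest tested neighbours of Herc6, Ppm1k and Gm37397, had log2 fold changes of -0.09 and -0.18.

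**Figure D5:**
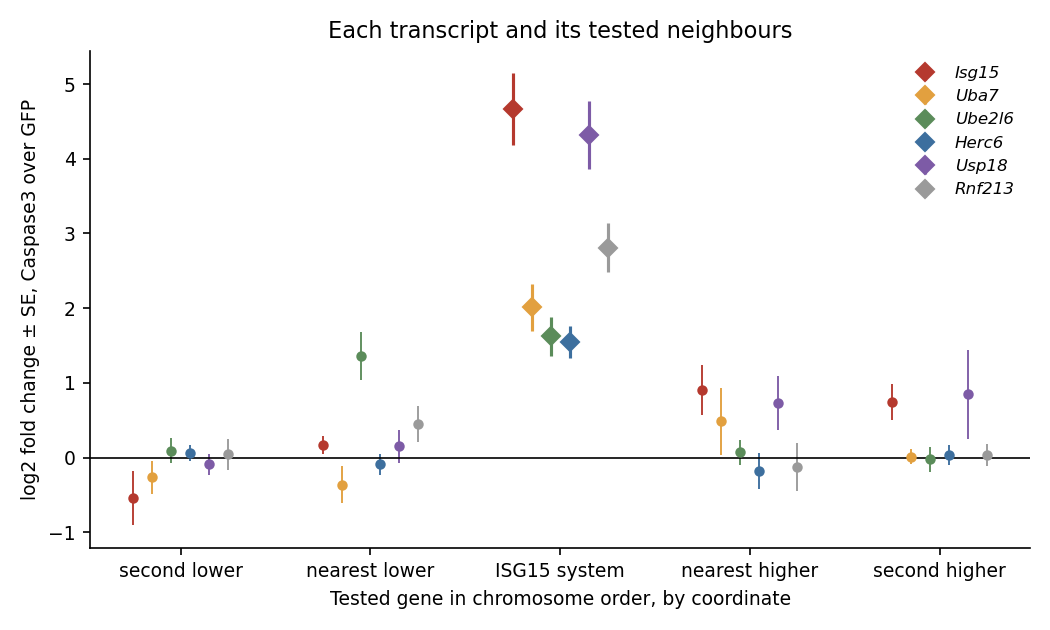
Log2 fold change of Caspase3 over GFP with its SE for each gene of the ISG15 system (diamonds) and for the 2 nearest tested genes on each side of it (circles, in the colour of the gene they flank). Diamonds lie between 1.55 and 4.66, and circles between -0.54 and 1.36.

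Likeness to the system was measured as the root mean square difference between log2 CPM profiles over the 6 libraries, each centred on its own mean. The difference between the groups is part of each profile, so a small distance requires a like fold change, and this ranking adds no separate evidence. The 5 genes nearest to the mean profile of the system were Trim34a (0.086), Ly9 (0.15), Gbp2 (0.16), Parp14 (0.16) and Irgm1 (0.16), with log2 fold changes between 2.49 and 2.90. Rnf213 was the member nearest to that mean (0.20) and Isg15 the farthest (0.84), where each member is itself part of the mean. By gene, Irf7 lay nearest to Usp18 (0.17), Oas1g to Isg15 (0.21), Ifitm3 to Uba7 (0.087), Trim30a to Rnf213 (0.10), Lpar5 to Ube2l6 (0.16) and Gm6545 to Herc6 (0.11). Lpar5 and Gm6545 did not pass the test (edgeR adjusted p = 0.0837 and 0.0581).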

How the data were processed

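Per the labels' protocols, TRIzol was used for the RNA, and the library kit marks second-strand cDNA with U. The deposited table holds whole-number read counts per gene, and the deposited FPKM values equal these counts divided by gene length and by 95.6% to 105.6% of the library total. The submitters' processing notes name HISAT2, featureCounts, DESeq2, mm10 and GRCm38 without their roles; versions and strand setting are not given in the sources used here. Groups and replicate numbers came from the sample titles.

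The main test was the quasi-likelihood test of edgeR 4.0.16 (R 4.3.3) on the counts of all 6 libraries, after filterByExpr and TMM, with an intercept and the group, with Benjamini-Hochberg adjustment over 16721 genes and a threshold of 0.05. CPM uses TMM-scaled totals. The SE is the absolute log2 fold change divided by the square root of F. Shares and ratios used exact two-sided permutation tests over libraries. The fitting code was tested on simulated counts. Replicates differed by more than sampling noise (mean chi-square per gene 12.6 to 32.8).

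The genes and lists were chosen with earlier results of these data known. Named genes are the members, up to 4 called genes per list by p (or the most read one), called neighbours and the nearest profiles; genes named beyond that rule (Arih1, the Usp genes beside Trim25, Itgal, Ifnar1, Ifnar2, Jak1, Pcna, Irf1, Irf3, Cd4 and the neighbours) were chosen after their values were seen. A listed gene that the rule names is not reported here. Exons of Gm20661 and Gm45193, with no count in any library, overlap 3.48% of Uba7 and 13.7% of Herc6 exon length, and those of Gm44148 (at most 1 count in a library) overlap 4.44% of Usp18. Reads there may have been left out or assigned to either gene. Alternatives were DESeq2 1.42.0, its size factors, library totals, no filter, limma-voom and limma 3.58.1 on log2(FPKM + 0.1) and log2(FPKM + 1), the replicate block, left-out libraries and, for shares, other lengths. Promoters came from the RefSeq table, and figures were drawn with Matplotlib 3.10.9.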

Additional observations from a re-analysis of the deposited data

How the results depend on the processing

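The 6 log2 fold changes were positive in all 15 alternatives, and 6 of 6 genes passed in each fit on all libraries except limma on log2(FPKM + 1), where Uba7 missed the threshold (log2 fold change 0.68, adjusted p = 0.0882; the cause was not tested). Leaving out 1 library gave log2 fold changes of 4.04 to 4.95 for Isg15, 1.60 to 2.19 for Uba7, 1.37 to 1.85 for Ube2l6, 1.43 to 1.76 for Herc6, 3.84 to 4.64 for Usp18 and 2.47 to 3.07 for Rnf213, and 0 to 6 members passed, with 0 without GFP replicate 2. Whether the replicate numbers pair the libraries was not settled. Deviations of same-numbered libraries correlated at 0.065, 0.178 and 0.027, and those of differently numbered libraries at -0.142 to 0.079. With the replicate block, 6 members passed and 378 genes were called higher and 43 lower, against 255 and 19 without it. Caspase3 replicate 1 correlated best with GFP replicate 3 (0.079), and Caspase3 replicates 2 and 3 correlated best with their own numbers. Over all genes, DESeq2 called 397 higher and 98 lower, limma on log2(FPKM + 1) 160 and 10, and edgeR on unfiltered counts 663 and 250. Leaving out Caspase3 replicate 1 with GFP replicate 3 gave 77 lower genes, and leaving out 1 library gave 15 to 252 higher and 2 to 33 lower genes. Among shares of the system, the difference for Herc6 was -16.5 percentage points without Rnf213 and -16.8 with the longest coding transcript as length (-13.2 as reported), and that for Usp18 was 13.6 with that length (10.1 as reported). That length was chosen after seeing the data. Of the other listed genes 14 were called higher, and 2 without GFP replicate 2. Isg15 had 11 to 15 counts in each GFP library, the fewest of the 6 genes, so its GFP level is the least precisely counted.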
